A study of Homo sapiens with 10 samples.

Results

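LIF and the interleukin-6 family of cytokine genes were followed in bronchial epithelial cells that had been selected in soft agar with or without chromate. The family was represented by 10 genes, namely the ligands LIF, IL6, IL11 and OSM, the receptor chains LIFR, OSMR, IL6R and IL6ST, the feedback inhibitor SOCS3 and the transcription factor STAT3. These genes were chosen by their symbols in the array annotation, as 10 of 18377 named genes, and each of them had 1 transcript cluster (the set of probes that reads 1 gene) among the 28869 on the array. The choice was made with earlier results of these arrays known. LIF in particular belongs to a group of genes that the study drew from these arrays for lying above the parental cells, so its distance from the parental cells is given as a description.

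The cells were BEAS-2B, an immortalised human bronchial epithelial line. Untreated cells that formed colonies in soft agar gave the control lines, and cells kept in 0.5 µM potassium chromate, a hexavalent chromium (Cr(VI)) salt, for 30 days before soft agar gave the Cr lines. Large colonies of the exposed cells gave the Cr_large lines, and colonies matched in size to those of the controls gave the Cr_small lines. All 9 lines had passed through 3 weeks of anchorage-independent growth and were then expanded in monolayer, each from a single colony, while the parental BEAS-2B cells had not been in soft agar. There were 3 lines in each group and 1 parental array. The treatment text of the labels names the exposure for every array, so the groups follow the titles and cell type labels. Each line is thus 1 clone, no repeat of the exposure is described, and p-values measure the spread between clones. RNA came from whole cultures, in which fewer cells expressing a gene and less of its RNA per cell cannot be told apart.

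Cytokines of this family signal through gp130, the shared receptor chain encoded by IL6ST. LIF binds LIFR and OSM can bind LIFR or OSMR, each in a complex with gp130, while IL-6 and IL-11 use their own receptor chains, IL6R and IL11RA, to reach it. The assembled receptors activate JAK kinases, which phosphorylate STAT3, and STAT3 then enters the nucleus. SOCS3 is one of its target genes and shuts the receptor down. In airway epithelium the family takes part in inflammation, acute phase responses and repair.

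Levels are log2 intensities, on which a difference of 1 is 2-fold. All values on the 10 arrays lay between 4.32 and 14.05, with a median of 5.86, and the array medians were 5.82 to 5.9. The labelled cell type showed in part. KRT8 and KRT18, keratins of simple epithelia, averaged 11.70 ± 0.25 and 11.34 ± 0.14 in the control lines (SD, n = 3). The epithelial adhesion genes CDH1 and EPCAM averaged 4.94 and 4.96 there, below the median of all values, and 4 of 9 measured epithelial markers had a mean below that median. The mesenchymal markers VIM and FN1 averaged 11.69 and 13.00 and the fibroblast genes DCN and LUM 4.61 and 4.67, and 5 of 12 mesenchymal markers had a mean below the median. Of 12 mesenchymal markers, 1 passed the test between Cr and control lines, the fibroblast gene FAP, which fell by 1.92 on the log2 scale (limma adjusted p = 0.00157). Of 9 measured epithelial markers, KRT7, KRT8 and KRT18 rose, by 0.32, 0.75 and 0.82 (limma adjusted p = 0.0433, 0.00505 and 0.00188). Thus 33.3% of epithelial markers rose, against 7.0% of all named genes. That share includes KRT7, which passed in 6 of 18 alternative analyses, while KRT8 and KRT18 passed in all 18. The 8.33% of mesenchymal markers that fell was near the 7.57% of all named genes. The log2 of the summed epithelial markers was 12.91 to 13.23 in the control lines and 13.47 to 13.94 in the Cr lines, and that of the mesenchymal markers was 13.93 to 14.46 and 13.81 to 14.13. None of 7 measured leukocyte markers and none of 6 endothelial markers passed the test, which is also near the shares of all named genes. Their summed levels were 8.76 to 8.83 and 7.48 to 7.52 on the log2 scale in the control lines and 8.76 to 9.26 and 7.53 to 7.58 in the Cr lines. The macrophage marker CD68 averaged 7.43 and 7.93 in control and Cr lines (limma adjusted p = 0.128) and CD14 6.59 and 6.29, while the leukocyte gene PTPRC and the endothelial gene PECAM1 lay at 4.52 to 4.66 and 4.76 to 4.93 in the 9 lines. The part of these marker differences in the results below was not tested.

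Promoter windows of RefSeq (GRCh38.p14, 250 bases before to 50 after a start site) were held for 8 of the 10 genes, in 11 windows. Those shown are of the 4 genes whose Cr lines all lay beyond the control lines and which had an entry, because these are the genes on which the comparison with the control lines turns. Capitals mark a match to the AP-1 motif TGANTCA, searched on both strands. The windows are chr19:55370414-55370713, minus strand, for IL11, chr5:38845762-38846061, plus strand, for OSMR, chr5:55994914-55995213, minus strand, for IL6ST and chr17:42388393-42388692, minus strand, for STAT3.
IL11: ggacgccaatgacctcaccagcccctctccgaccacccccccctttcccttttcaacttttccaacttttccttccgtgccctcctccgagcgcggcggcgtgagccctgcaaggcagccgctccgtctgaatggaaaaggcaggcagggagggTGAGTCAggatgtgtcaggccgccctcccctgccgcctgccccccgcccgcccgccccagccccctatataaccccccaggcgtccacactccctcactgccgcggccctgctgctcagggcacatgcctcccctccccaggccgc
OSMR: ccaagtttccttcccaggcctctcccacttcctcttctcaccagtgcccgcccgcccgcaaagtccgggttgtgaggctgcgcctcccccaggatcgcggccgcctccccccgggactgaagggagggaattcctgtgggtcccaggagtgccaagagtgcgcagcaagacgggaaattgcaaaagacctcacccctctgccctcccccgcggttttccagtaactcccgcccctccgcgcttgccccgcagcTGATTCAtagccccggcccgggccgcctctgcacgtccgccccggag
IL6ST: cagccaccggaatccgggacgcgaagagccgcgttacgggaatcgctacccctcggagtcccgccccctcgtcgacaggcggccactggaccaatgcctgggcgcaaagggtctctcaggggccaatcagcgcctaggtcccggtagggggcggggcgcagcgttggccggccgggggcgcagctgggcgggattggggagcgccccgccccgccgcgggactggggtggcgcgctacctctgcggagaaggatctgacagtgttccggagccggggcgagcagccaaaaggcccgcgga
STAT3: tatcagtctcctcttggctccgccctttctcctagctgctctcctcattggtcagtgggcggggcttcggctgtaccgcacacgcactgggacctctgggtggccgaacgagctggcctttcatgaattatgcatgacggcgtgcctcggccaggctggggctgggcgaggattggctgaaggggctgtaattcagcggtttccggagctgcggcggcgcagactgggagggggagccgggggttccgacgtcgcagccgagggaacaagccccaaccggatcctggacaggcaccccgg
IL11 held TGAGTCA, whose first base lies at -96 from the start site, and OSMR held TGATTCA, beginning at 4 bases after it. An AP-1 match of this kind stood in 7.71% of 35116 promoter windows of the same length. The IL6R window also held 1, beginning 38 bases after its start site. The STAT motif TTCNNNGAA, held by 7.66% of all windows, was matched once each in 2 of 3 LIFR windows and in none of the other 8 windows of the family. The CRE motif TGACGTCA (1.85% of windows) was in none of the 11, and the TATA motif TATAAA (11.5%) was in 1 LIFR window, as 2 overlapping matches on opposite strands. These are matches of letters, not binding sites.

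The family did not move as one between control and Cr lines. The ligand genes LIF and IL11 and the shared receptor gene IL6ST were lower in the Cr lines, the receptor gene OSMR was higher, and the other 6 genes did not pass the test. That was 4 of 10 genes at a limma adjusted p under 0.05, against 11.0% of all clusters. Of the 10 genes, 3 were lower, against 5.72% of clusters and 7.57% of named genes. The 1 that was higher stands against 5.33% of clusters and 7.0% of named genes. The median log2 difference over the 10 genes was -0.03, and over all clusters 0.01. All 6 Cr lines lay beyond all 3 control lines for 5 of the 10 genes, against 16.7% of clusters. Of these, OSMR and STAT3 lay above (8.85% of clusters) and LIF, IL11 and IL6ST below (7.84% of clusters). Because the genes were chosen with results in view, these shares describe them and are no independent evidence.

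**Figure D1:**
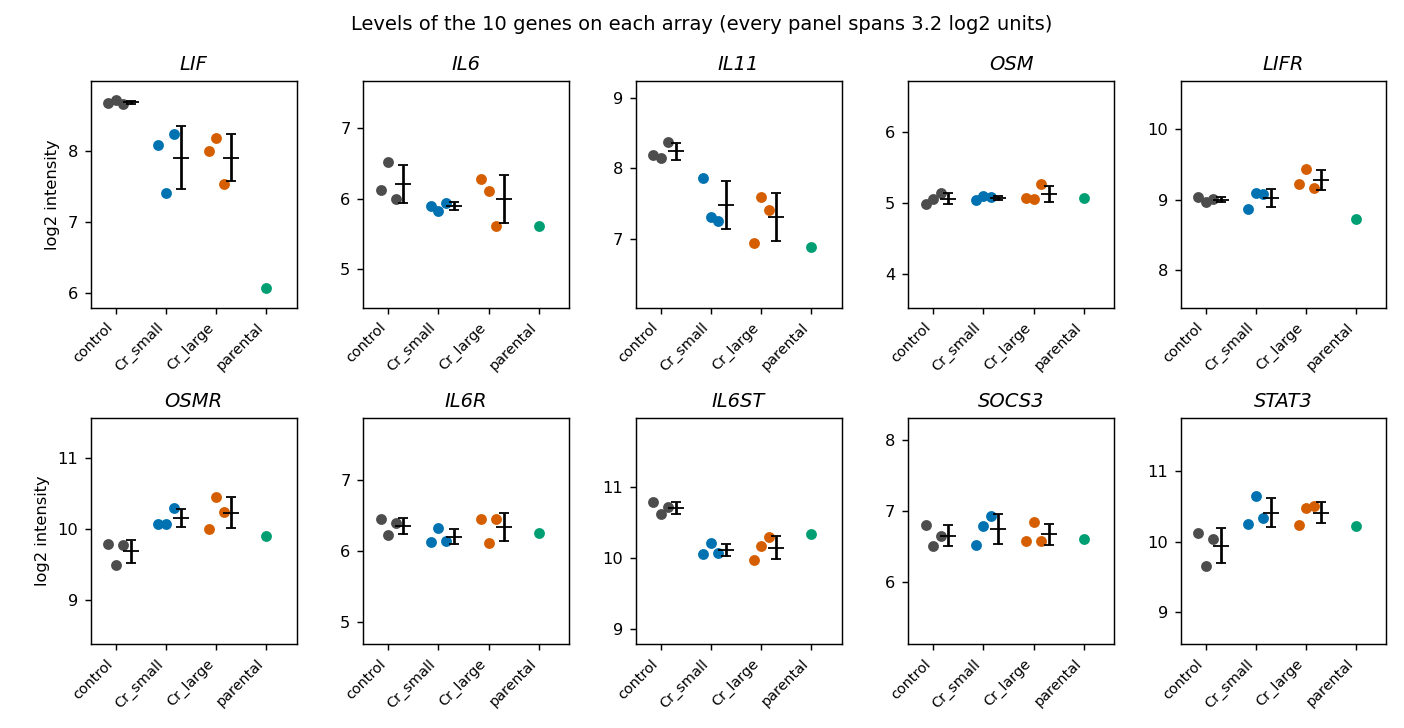
The vertical axes give log2 intensity on each array for the 10 genes, with points for single lines by group and for the parental array, and with bars for the mean and SD of 3 lines. LIF, IL11 and IL6ST of the 6 Cr lines lie below the control lines, OSMR and STAT3 lie above them, and OSM stays between 4.98 and 5.26.

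LIF, which encodes leukemia inhibitory factor, was lower in the Cr lines by 1.71-fold. Its level in control lines 1, 2 and 3 was 8.69, 8.72 and 8.67. In the Cr_small lines it was 8.09, 7.41 and 8.24, and in the Cr_large lines 8.01, 8.19 and 7.54. The control lines lay within 0.05 of each other, every Cr line was below them, and the Cr lines spread more widely, with an SD of 0.35 (n = 6) against 0.02 (n = 3). The difference between Cr and control lines was -0.78 on the log2 scale (SE 0.20, 95% interval -1.24 to -0.32, limma adjusted p = 0.0446). It was -0.78 in each Cr group, with limma adjusted p = 0.0855 for Cr_small and 0.092 for Cr_large, neither past the threshold. LIF no longer passed once a control line (any of the 3), Cr_small line 1, Cr_large line 1 or Cr_large line 3 was left out (limma adjusted p = 0.0592 to 0.128). Over all 9 lines left out in turn the difference was -0.86 to -0.65.

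IL11, a ligand linked to epithelial repair and to fibrosis, was also lower in the Cr lines. The control lines read 8.19, 8.15 and 8.38. The Cr_small lines read 7.87, 7.31 and 7.26, and the Cr_large lines 6.94, 7.60 and 7.41. No Cr line reached the lowest control line. The Cr mean was below the control mean by 1.79-fold, or -0.84 on the log2 scale (SE 0.18, 95% interval -1.25 to -0.43, limma adjusted p = 0.0209). In Cr_large the difference was -0.92 (limma adjusted p = 0.0342) and in Cr_small -0.76 (limma adjusted p = 0.0626). IL11 did not pass with only 2 control lines, whichever was left out (limma adjusted p = 0.0513 to 0.0909).

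IL6, the founding cytokine of the family, was dim and varied within groups. Its levels were 6.12, 6.51 and 6.0 in the control lines, 5.90, 5.83 and 5.94 in Cr_small and 6.27, 6.10 and 5.61 in Cr_large. The groups overlapped, and the difference of -0.27 had a 95% interval of -0.63 to 0.10 (limma adjusted p = 0.364). OSM, which is made mainly by blood cells, lay at 4.98 to 5.26 on all 10 arrays, below the median of all values. Its difference was 0.04 (95% interval -0.09 to 0.17, limma adjusted p = 0.765).

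IL6ST, the gp130 gene, fell in both Cr groups. Control lines 1, 2 and 3 read 10.79, 10.62 and 10.72. The Cr_small lines read 10.06, 10.21 and 10.07, and the Cr_large lines 9.97, 10.17 and 10.29. The Cr lines therefore all lay below the control lines. The Cr mean was 1.49-fold lower, at -0.58 on the log2 scale (SE 0.08, 95% interval -0.76 to -0.40, limma adjusted p = 0.00313). The differences were -0.59 in Cr_small and -0.56 in Cr_large (limma adjusted p = 0.00733 and 0.00914). Over all Cr lines, IL6ST passed under all 18 alternatives, with adjusted p of at most 0.0196. In Cr_small and in Cr_large it passed under 17 of the 18, and not with the methods' t-test after adjustment.

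OSMR, the chain that pairs with gp130 to bind oncostatin M, moved the other way. It read 9.79, 9.50 and 9.78 in the control lines, 10.08, 10.08 and 10.30 in Cr_small and 10.01, 10.45 and 10.24 in Cr_large. Every Cr line exceeded every control line. The Cr mean was 1.42-fold higher, at 0.51 on the log2 scale (SE 0.11, 95% interval 0.25 to 0.76, limma adjusted p = 0.0248). It was 0.55 in Cr_large (limma adjusted p = 0.0424) and 0.47 in Cr_small (limma adjusted p = 0.0678). OSMR also did not pass when a control line was left out, whichever it was (limma adjusted p = 0.0599 to 0.0815).

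LIFR, the specific chain of the LIF receptor, was measured at 9.03, 8.96 and 9.01 in the control lines. It was 8.87, 9.10 and 9.08 in Cr_small and 9.22, 9.43 and 9.17 in Cr_large. Each Cr_large line was above each control and Cr_small line, whereas Cr_small lay on both sides of the controls. The difference was 0.15 for all Cr lines (95% interval -0.03 to 0.32, limma adjusted p = 0.287), 0.27 for Cr_large (limma adjusted p = 0.109) and 0.02 for Cr_small (limma adjusted p = 0.948). IL6R, the interleukin-6 binding chain, lay between 6.11 and 6.45 on every array and its groups overlapped (difference -0.10, 95% interval -0.31 to 0.12, limma adjusted p = 0.621).

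STAT3 was higher in every Cr line than in any control line, but it did not pass the test. The control lines read 10.12, 9.66 and 10.04, the Cr_small lines 10.25, 10.64 and 10.33, and the Cr_large lines 10.24, 10.48 and 10.51. The difference was 0.47 on the log2 scale (SE 0.13, 95% interval 0.17 to 0.76, limma adjusted p = 0.0555). Control line 2 was the lowest, and over the lines left out in turn the adjusted p was 0.0526 to 0.152. It passed in 4 of the 18 alternatives. SOCS3, its target and inhibitor, read 6.80, 6.50 and 6.64 in the control lines, 6.51, 6.78 and 6.93 in Cr_small and 6.58, 6.84 and 6.58 in Cr_large. Those groups overlapped, with a difference of 0.05 (95% interval -0.20 to 0.31, limma adjusted p = 0.836).

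The Cr_small and Cr_large groups were compared with the same control lines, so their values stand side by side and do not support each other. Of the 10 genes, IL6ST alone passed in Cr_small (8.26% of all clusters did), and IL11, OSMR and IL6ST passed in Cr_large (7.44%). Of the 18 alternatives, the Cr_large call held in 17 for IL6ST, in 11 for IL11 and in 7 for OSMR, which also lost it when control and Cr_large lines alone were fitted. The direct comparison asks whether colony size goes with a difference. None of the 10 genes passed between Cr_large and Cr_small in limma, where 0% of clusters passed and 1266 had an unadjusted p under 0.05. The methods' t-test called none of the 10, with or without adjustment. Among the 10, LIFR alone was under 0.05 unadjusted in limma, being 0.26 higher in Cr_large (95% interval 0.06 to 0.46, limma adjusted p = 1). The 95% interval of the Cr_large minus Cr_small difference was -0.53 to 0.53 for LIF, -0.63 to 0.31 for IL11 and -0.18 to 0.24 for IL6ST, so that the arrays leave room for differences of those sizes.

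**Figure D2:**
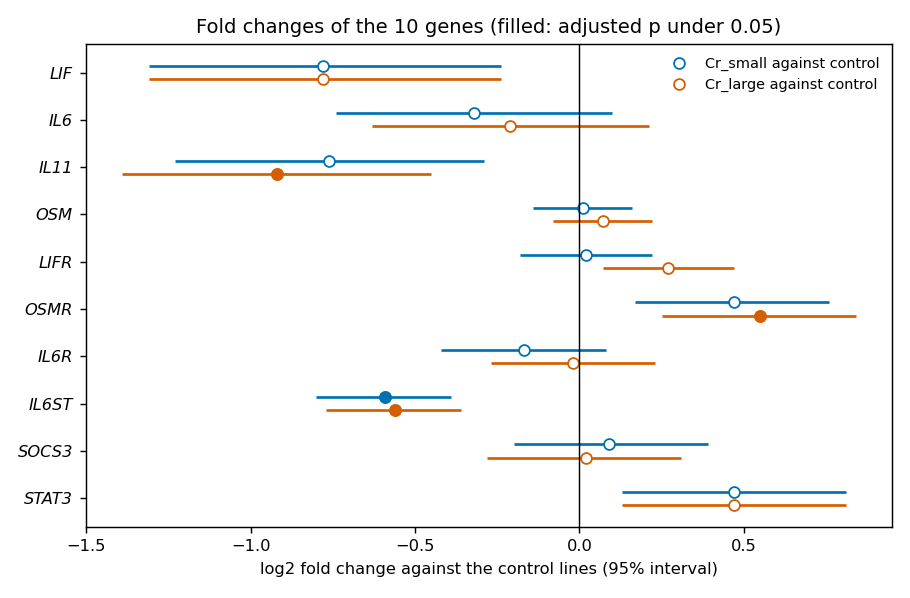
The horizontal axis gives log2 fold changes of the Cr_small and Cr_large lines against the control lines, with 95% intervals, and filled points passed a limma adjusted p of 0.05. The interval of IL6ST is narrow, at -0.80 to -0.39 in Cr_small, and that of LIF wide, at -1.31 to -0.24.

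The parental array placed these differences on different sides of the starting cells. For LIF, which the parental cells had at 6.07, all 9 lines were higher, by 2.63 in the control lines (6.17-fold) and by 1.85 in the Cr lines (3.6-fold). For IL11, at 6.89 in the parental cells, all 9 lines were also higher, by 1.35 in the control lines (2.55-fold) and by 0.51 in the Cr lines (1.43-fold). The 6 Cr lines thus lay between the parental cells and the control lines for both ligands. For IL6ST, at 10.34 in the parental cells, the 3 control lines were above and the 6 Cr lines below. OSMR and STAT3 showed the reverse, with parental levels of 9.91 and 10.22, all 3 control lines below them and all 6 Cr lines above. Some Cr lines lay close to the parental array. The highest for IL6ST was at 10.29, and the lowest for OSMR and STAT3 were at 10.01 and 10.24.

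LIF and IL11 differed from the parental array by 2-fold or more in the control lines (1.13% of clusters did so), and in the Cr lines LIF alone did (1.85% of clusters). The Cr lines averaged 0.34 above the parental array for IL6 and 0.43 for LIFR, and all 9 lines lay above it for both, although Cr_large line 3 and the parental array both read 5.61 for IL6. OSM, IL6R and SOCS3 had lines on both sides of it. All of these distances rest on the same single parental array, which has no replicate, and no test was made.

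**Figure D3:**
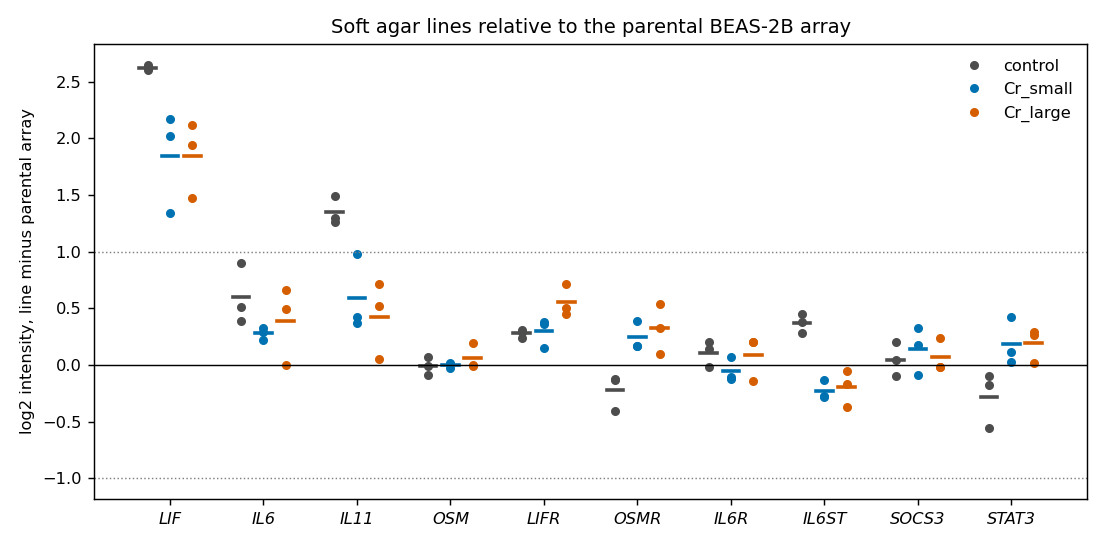
The vertical axis gives log2 intensity of each of the 9 lines minus that of the parental array, with short bars for the mean of 3 lines and dotted lines at 2-fold. The control lines exceed the parental array by 2.63 for LIF and 1.35 for IL11. Control and Cr lines fall on opposite sides of 0 for IL6ST, OSMR and STAT3, with some Cr lines close to it.

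Most genes around OSMR, LIFR and STAT3 rose in the Cr lines at a limma adjusted p under 0.05, and none around LIF and IL11 fell at it. Neighbours counted as having risen or fallen are those that passed this test. For each gene, the 10 expressed genes on each side were taken, with a mean log2 intensity over 7. Around OSMR and LIFR, which lie close together on chromosome 5, 13 of 20 neighbours rose and none fell in the Cr lines, and their median difference was 0.48. OSMR, at 0.51, lay near that median, with 9 neighbours above it, while LIFR, at 0.15, lay below 18 of the 20. WDR70, RICTOR and RIMOC1 in this stretch rose by 0.53, 0.52 and 0.57 (limma adjusted p = 0.00173, 0.00149 and 0.000742), and were named after their values were seen.

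Around STAT3 on chromosome 17, 15 of 20 neighbours rose, none fell, and the median was 0.54, against 0.47 for STAT3 itself. STAT5B, a STAT gene on one side of it, differed by 0.25 (limma adjusted p = 0.138). Around IL6ST, elsewhere on chromosome 5, 2 of 20 rose and 3 fell, with a median of -0.30. The difference of IL6ST was larger, at -0.58, and 18 of its 20 neighbours lay above it. Of the 18377 named genes of the array, 1287 rose and 1392 fell (7.0% and 7.57%). These shares include dim genes, which were left out of the neighbours, so they are not a like background for the neighbour counts.

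The differences of LIF and IL11 lay below those of all 20 of their neighbours. Around LIF and OSM on chromosome 22, 4 of 20 neighbours rose and none fell, with a median of 0.14, and all 20 lay above LIF. Around IL11 on chromosome 19, 1 of 20 rose and none fell, the 20 ranged from -0.14 to 0.24, and IL11 was at -0.84. The medians around IL6, IL6R and SOCS3 were 0.02, -0.22 and 0.05. The part of a shift shared by neighbours in the values of OSMR, STAT3 and IL6ST was not tested.

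**Figure D4:**
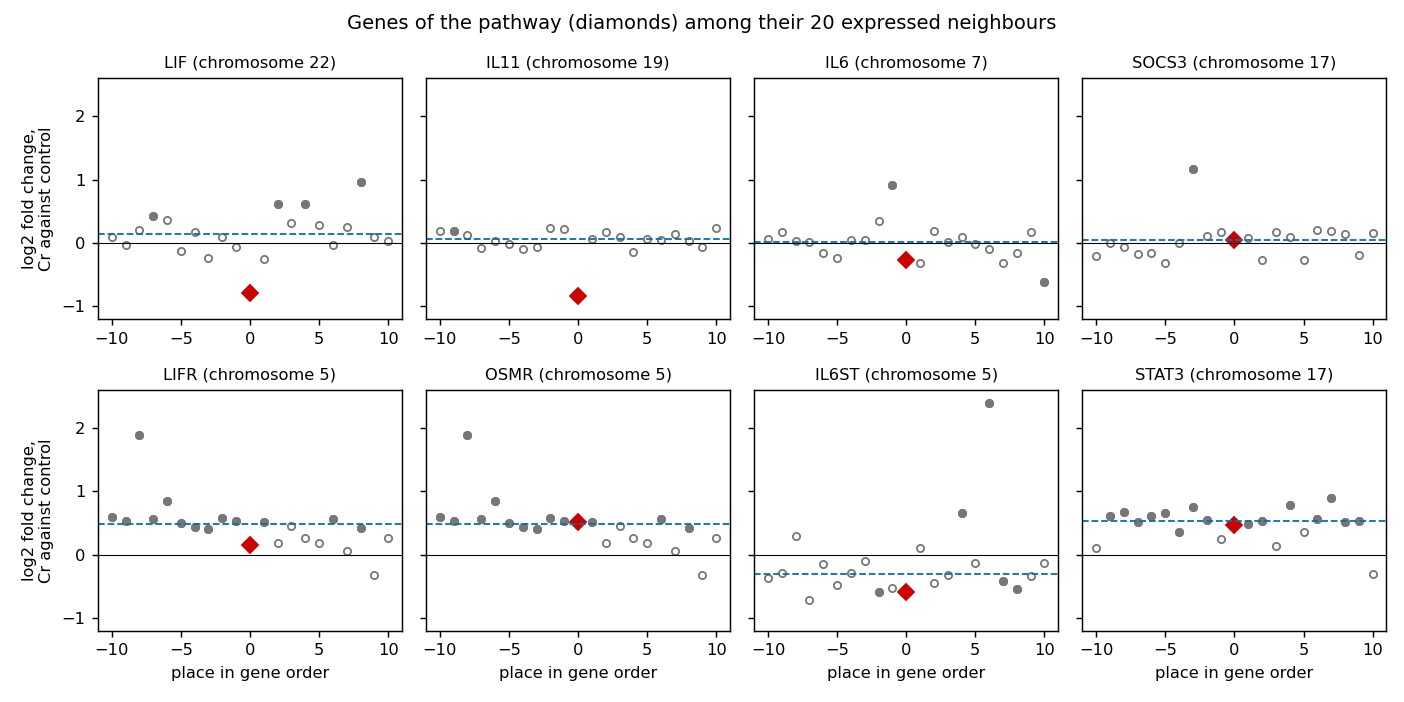
The panels give log2 fold changes of Cr against control lines (vertical axis) by place in gene order (horizontal axis), with diamonds for 8 genes of the family and circles for their 20 expressed neighbours, filled at a limma adjusted p under 0.05. Dashed lines are medians of the neighbours, 0.48 around OSMR and LIFR and 0.54 around STAT3, and LIF and IL11 lie far below theirs, 0.14 and 0.06.

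The other ligands, receptors, kinases and STATs of the pathway did not pass the test. Of all named genes, 7.0% rose and 7.57% fell in it, so none in a list of 4 or 8 is near those shares. In the lists that follow, genes that rose or fell are those that passed. None of 4 other ligands measured passed the test, with CTF1 (cardiotrophin 1) at 7.01 in control and 7.13 in Cr lines and IL27 at 5.89 and 6.12. None of 4 other receptors passed, and IL11RA, the chain that binds interleukin-11, averaged 6.07 ± 0.04 in the control lines and 6.0 ± 0.04 in the Cr lines (SD, n = 3 and 6). None of 8 kinases and STATs passed. JAK1, the main kinase on gp130, averaged 10.31 and 10.20, and STAT6, the interleukin-4 responsive STAT, 8.65 and 8.91.

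Of 15 inhibitors, 2 fell (13.3%, against 7.57% of all named genes) and none rose (against 7.0%). These were PIAS1, a SUMO ligase that restrains STAT proteins, and SOCS5, a relative of SOCS3. PIAS1 averaged 9.45 ± 0.06 in the control lines and 9.03 ± 0.06 in the Cr lines and was 9.83 in the parental cells (difference -0.42, limma adjusted p = 0.00162). SOCS5 averaged 9.64 and 9.22 (difference -0.42, limma adjusted p = 0.0275). The list's median difference was 0.10, against 0.03 over all named genes.

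Among 27 genes listed as targets of STAT3, 1 rose (3.7%), 4 fell (14.8%) and 22 did not pass, with a median of 0.01. The list is in part dim, with 12 of the 27 at a mean below the median of all values, where little room is left for a fall. Of all named genes, 7.0% rose and 7.57% fell. JUNB, a subunit of AP-1, ranged from 8.91 to 9.18 in the control lines and from 7.12 to 7.74 in the Cr lines, with no overlap, and was 7.25 in the parental cells. It was 3.06-fold lower in the Cr lines (difference -1.61, limma adjusted p = 0.000105). SERPINA3, an acute phase protease inhibitor, was 5.93 to 7.15 in the control lines and 4.80 to 5.01 in the Cr lines, against 4.83 in the parental cells (difference -1.63, limma adjusted p = 0.00347). JUNB and SERPINA3 thus lay near the parental level in the Cr lines. For SERPINA3 both levels were below the median of all values, so their likeness is limited by signal over background.

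MCL1, a survival protein of the BCL2 family, fell from 11.21 to 10.42 (limma adjusted p = 0.00226) and was 10.95 in the parental cells. CCND1, which encodes cyclin D1, rose by 1.11 from 8.94 ± 0.30 to 10.06 ± 0.28 (limma adjusted p = 0.00693), with the parental cells at 7.30. The fifth gene, named after its values were seen, was TIMP1, a metalloproteinase inhibitor, at 12.38 and 11.65 (limma adjusted p = 0.015). The targets that passed thus included genes of both directions. SOCS3, also a target, was counted with the 10 genes and was not in this list, and it did not pass (limma adjusted p = 0.836).

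Genes of NF-kB and interleukin-1 signalling, a pathway that also drives IL6 and LIF transcription, were listed beside them. Of 15 measured, 3 fell (20%, against 7.57% of all named genes) and none rose (against 7.0%), with a median of -0.07. A mean below the median of all values was found for 8 of the 15. IL1R1, the interleukin-1 receptor, was 7.69 to 8.20 in the control lines, 6.08 to 7.07 in the Cr lines and 6.10 in the parental cells. Its difference was -1.36, or 2.56-fold (limma adjusted p = 0.00634). CXCL1, a neutrophil chemokine, averaged 7.19 and 6.49 (limma adjusted p = 0.039), and IL1A, the interleukin-1 alpha gene, 5.30 and 4.97 (limma adjusted p = 0.0073). All 3 lay closer to the parental array in the Cr lines than in the control lines, with CXCL1 at 6.26 and IL1A at 4.79 there. IL1A was below the median of all values on every array and is limited by signal over background.

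**Figure D5:**
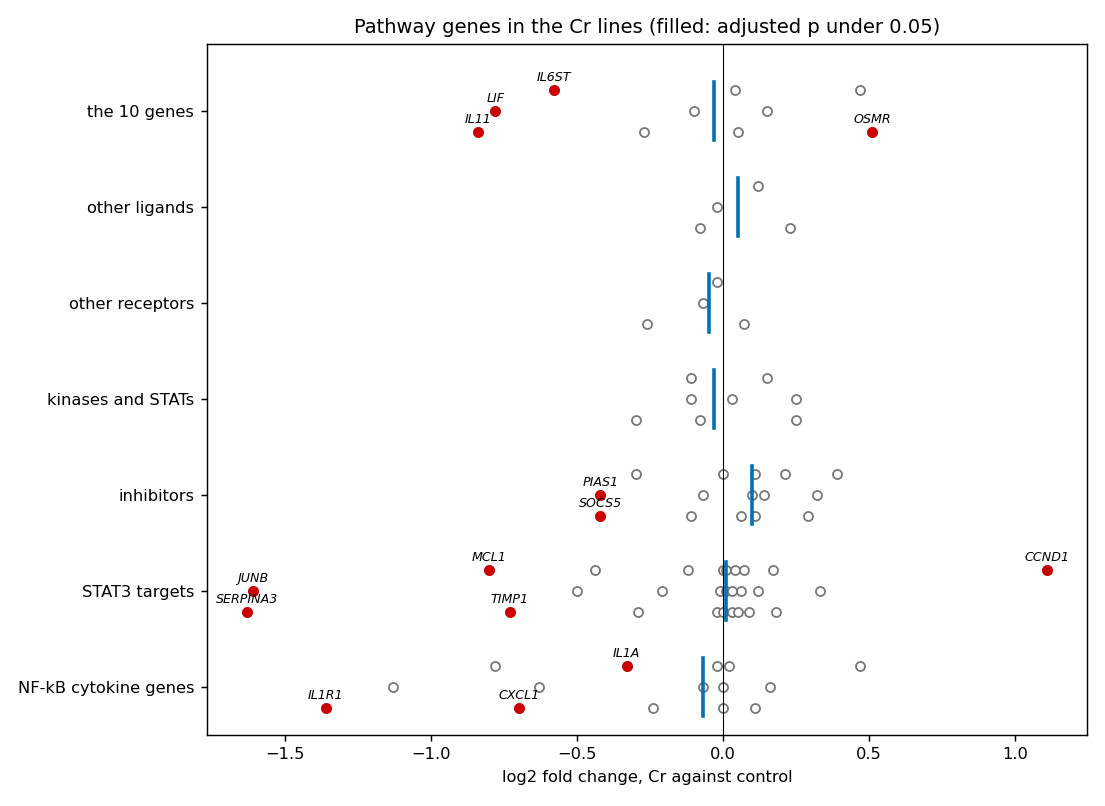
The horizontal axis gives the log2 fold change of Cr against control lines for the 10 genes and for the genes of 6 pathway lists, filled and named at a limma adjusted p under 0.05, with vertical bars for the medians. The medians lie between -0.07 and 0.10, and JUNB and SERPINA3 lie farthest left.

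The genes whose levels over the 10 arrays were most like those of LIF and IL11 were ranked by Pearson correlation among 2174 named genes that spanned at least 1 on the log2 scale, as LIF and IL11 alone of the 10 did. For LIF these were DKC1, a component of telomerase (r = 0.965), KLF10, a TGF-beta early response gene (r = 0.951), ROR1, a receptor tyrosine kinase (r = 0.951), the clock gene PER2 (r = 0.942) and ZNF275 (r = 0.942). DKC1 averaged 10.74 in the control lines, 10.42 in the Cr lines and 9.56 in the parental cells. Its difference between Cr and control lines was -0.31 (limma adjusted p = 0.0257). KLF10, ROR1, PER2 and ZNF275 did not pass that test (limma adjusted p = 0.0587 to 0.191). For IL11 they were SMAD7, an inhibitor of TGF-beta signalling (r = 0.967), CSRNP1 (r = 0.912) and the interleukin-1 receptor kinase IRAK1 (r = 0.908). SMAD7 averaged 8.36, 7.46 and 7.02 in control, Cr and parental cells, and its difference between Cr and control lines was -0.91 (limma adjusted p = 0.00771). These points share the groups and the parental array, so the correlations describe these 10 arrays.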

How the data were processed

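Total RNA of 9 soft agar lines and of parental BEAS-2B cells was hybridised to Affymetrix Human Gene 1.0 ST arrays, 10 in all. The deposited values are linear intensities from 20.0 to 16979.5, which the authors made with RMA16 in GeneSpring (background correction, quantile normalization and summing of probes). Their log2 was taken here. The added constant of RMA16 shrinks differences of dim genes, and precision is limited by having 10 arrays. The aligner of probes to genes is not given in the sources used here, and names came from the platform annotation, updated through Entrez identifiers to RefSeq.

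Of the 28869 transcript clusters, 19310 carry a single symbol in the annotation, 1752 carry several and 7807 carry no symbol here. This gave 18377 named genes, each represented by its cluster with the highest mean. A mean for each of 4 groups was fitted to all clusters with limma 3.58.1 in R 4.3.3 (lmFit, contrasts, eBayes), with 6 residual and 1.96 prior degrees of freedom. Adjustment of p-values (Benjamini-Hochberg) ran over the whole table, and an adjusted p under 0.05 was called. The Cr contrast is the mean of the Cr_small and Cr_large means minus the control mean, and a fold is 2 to the power of a log2 difference. Differences from the parental array have no test. The study's methods name an unpaired t-test, which was run as an alternative beside other moderation, filters, normalizations, a replicate block and each line left out in turn. The fitting code was tested on simulated data.

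The 10 genes and the gene lists were chosen with earlier results of these data known. Besides the 10 genes, the text names up to 4 genes of each list (those called with the largest differences or, with none called, the 2 brightest), the 5 genes most like LIF and the 3 most like IL11. Further genes are said to be named after their values were seen, as are the markers CDH1, EPCAM, VIM, FN1, DCN, LUM, PTPRC and PECAM1 and the neighbour STAT5B. Gene order came from RefSeq. Motifs were searched in the RefSeq windows with Python 3.11.15, and figures were drawn with matplotlib 3.10.9.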

Additional observations from a re-analysis of the deposited data

Results flagged for a closer look

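OSM in Cr_large line 3 was at 5.26, and the next of the 6 Cr lines was at 5.09. This gap made up 0.783 of the whole range of the 6 lines, above the 95% critical value of Dixon's test for 6 values, which marks about 1 in 20 groups by chance. It was the only such case among the 10 genes in the 6 Cr lines. OSM was dim on every array.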

How the results depend on the processing

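The direction of LIF, IL11, IL6ST, OSMR, STAT3, IL6, LIFR and IL6R in the Cr lines held under all 18 alternatives, and that of OSM and SOCS3 did not. OSM was at -0.002 without control line 1 and SOCS3 at -0.02 without control line 2, within ranges of -0.002 to 0.08 and -0.02 to 0.13 over the lines left out. The differences ranged from -0.86 to -0.65 for LIF, -0.94 to -0.75 for IL11, -0.63 to -0.54 for IL6ST and 0.41 to 0.56 for OSMR. Over all Cr lines, LIF lost its call in 8 of 18 alternatives, IL11 in 4, OSMR in 4 and IL6ST in none, and STAT3 gained one in 4.

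The number of the 10 genes called between Cr and control lines, 4, became 1 to 4 over the lines left out in turn, and was 1 (IL6ST) without any 1 control line. In Cr_small the number was 1, and it became 4 with the methods' t-test unadjusted, 0 after Benjamini-Hochberg adjustment of it, 2 with trend and robust moderation, 4 without the dimmest 25% of clusters, 2 with each array centred on its median, 3 when the clusters of each gene were averaged and 1 to 3 over the lines left out. In Cr_large the number was 3, and it became 6 and 0 with the unadjusted and adjusted t-test and 1 to 3 over the lines left out. From the parental array, 2 genes in the control lines and 1 in the Cr lines were 2-fold or more away under every alternative run for them. Over all clusters, the 3190, 2384 and 2147 called in Cr, Cr_small and Cr_large became 6629, 5467 and 4819 with the unadjusted t-test, 2255, 375 and 110 after its adjustment, and 1729 to 3163, 1178 to 2402 and 1087 to 2071 over the lines left out. The cause of these changes was not tested, except that fewer lines or fewer clusters were tested where they were left out.

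Line numbers did not pair the lines. The deviations of same-numbered lines from their group means correlated at -0.145 to 0.0984 in the 9 pairs. With the line number as a replicate block, 1 gene (IL6ST) was called in the Cr lines, 1 in Cr_small and 1 in Cr_large. In the list genes, SOCS5 was called in 10, CXCL1 in 11 and KRT7 in 6 of 18 alternatives, while PIAS1, JUNB, MCL1, CCND1, SERPINA3, IL1A, IL1R1, KRT8, KRT18 and FAP were called in all 18. Dim genes, such as OSM, are limited by signal over background.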

Other observations

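The following genes, listed with the pathway, were named after their values were seen. CCL2, a monocyte chemokine, was 8.16 to 9.08 in the control lines, 6.40 to 8.67 in the Cr lines and 7.79 in the parental cells, and CXCL8 (interleukin-8) was 6.94 to 7.10, 5.71 to 6.92 and 5.56. Neither passed the test between Cr and control lines (limma adjusted p = 0.176 and 0.15). NFKBIA, the inhibitor of NF-kB, was 9.56 to 9.95 in the control lines and 8.55 to 9.37 in the Cr lines, with no overlap, at a limma adjusted p of 0.0541. IL31RA, the partner of OSMR in the interleukin-31 receptor, was 6.08 in the parental cells, 5.08 to 5.45 in the control lines and 4.89 to 5.05 in the Cr lines (limma adjusted p = 0.0826). Its levels in the control and Cr lines were below the median of all values.

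IL7R, the interleukin-7 receptor gene, is among the neighbours of LIFR and OSMR and had the largest difference of those 20, 1.89 on the log2 scale (limma adjusted p = 0.00134).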
